A study of Mus musculus with 12 samples.

Results

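The 10 genes described here build and regulate the peptide-presenting MHC class I molecule. They were taken by name: the heavy chains H2-K1 and H2-D1, the light chain B2m, the peptide transporter genes Tap1 and Tap2, the loading factor Tapbp, the immunoproteasome subunits Psmb8, Psmb9 and Psmb10, and the transactivator Nlrc5. All 10 had a row in each of the 12 samples, out of 23704 gene names in 1 experiment and 23691 in the other.

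Whole tissue of female mice, 12 weeks old, was profiled by RNA-seq in 4 groups of 3 samples. The Normal group was untreated mammary gland of wild-type FVB mice, an inbred strain, with abdominal and inguinal glands of 3 mice pooled into each replicate. The Tumor group was untreated tumor of the thoracic mammary gland of MMTV-PyVT mice on the FVB background, with 1 mouse for each replicate. MMTV-PyVT mice carry the polyoma virus middle T antigen under the promoter of mouse mammary tumor virus, which is active mainly in mammary epithelium. The DMSO and C646 groups were tumors of MMTV-PyVT mice injected with DMSO, the solvent, or with C646, an inhibitor of the histone acetyltransferases p300 and CBP, and the largest tumor of each mouse was sequenced. The labels give a dose of 1 mg/kg for both injections. Normal and Tumor differ in genotype, gland position and pooling as well as in the presence of a tumor, and these cannot be told apart.

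Class I molecules show peptides from inside the cell to CD8 T cells. The proteasome cuts proteins into peptides, the TAP transporter moves them into the endoplasmic reticulum, and tapasin (Tapbp) holds the transporter beside an empty heavy chain and B2m until a peptide is bound. Interferon gamma raises the whole set: IRF1 acts on the promoters, 3 catalytic subunits of the proteasome are exchanged for Psmb8, Psmb9 and Psmb10, and Nlrc5 joins a complex of RFX, CREB and NF-Y factors on the class I and B2m promoters. Nearly all nucleated cells carry class I molecules, and lymphocytes and other leukocytes carry many.

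In the GENCODE annotation of GRCm38 (mm10), 7 of the 10 genes lie on chromosome 17 between positions 33915899 and 35267499, within the mouse MHC. Psmb9, Tap1, Psmb8 and Tap2 stand together in 34335 bases, and Psmb9 and Tap1 face away from each other with 212 shared bases at their starts. The libraries did not keep strand, so reads from the shared bases cannot be assigned to Psmb9 or Tap1. B2m lies on chromosome 2 (122147686 to 122153083, plus strand). On chromosome 8, Nlrc5 spans 94434356 to 94527272 on the plus strand, and Psmb10 spans 105935735 to 105938444 on the minus strand.

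RefSeq promoter sequence (GRCm38.p6, 250 bases before to 50 bases after the start) was matched for 8 of the 10 genes; Tap2 and Nlrc5 had no entry. A total of 6 short motifs known from class I and interferon-responsive promoters were searched on both strands. The sequences before the H2-K1 start (chr17:34000348-34000597, minus strand) and the B2m start (chr2:122147437-122147685, plus strand) are shown because they hold most of these motifs in a heavy chain and the light chain. Capitals mark the NF-kappaB letters GGGATTCCC, interferon response letters (GAAANNGAA or GAANNGAAA), the CRE-like TGACG and CCAAT, each on either strand, and no 2 of them overlap.
H2-K1: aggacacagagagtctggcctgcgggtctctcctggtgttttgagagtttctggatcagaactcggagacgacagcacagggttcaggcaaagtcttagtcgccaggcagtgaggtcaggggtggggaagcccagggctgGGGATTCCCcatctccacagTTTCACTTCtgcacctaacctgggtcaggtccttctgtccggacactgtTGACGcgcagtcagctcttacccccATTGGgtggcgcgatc
B2m: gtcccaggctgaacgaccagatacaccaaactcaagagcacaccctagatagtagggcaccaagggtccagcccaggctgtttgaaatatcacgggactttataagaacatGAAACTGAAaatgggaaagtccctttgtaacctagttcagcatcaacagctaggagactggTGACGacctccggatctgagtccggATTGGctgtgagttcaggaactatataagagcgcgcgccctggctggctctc

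H2-D1 holds the same pair of NF-kappaB and interferon response letters as H2-K1. In H2-D1 the letters lie before the RefSeq start but inside the gene as GENCODE draws it, which begins at 35262730. The stretch that spans the pair is given for both genes, with the pair in capitals, because 28 of its 29 bases were identical (H2-K1 at chr17:34000429-34000457, minus strand, and H2-D1 at chr17:35262924-35262952, plus strand).
H2-K1: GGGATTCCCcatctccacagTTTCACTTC
H2-D1: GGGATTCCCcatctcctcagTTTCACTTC

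GGGATTCCC was found in 0.353% of all 32851 promoters and, of the 8 matched genes, in H2-K1 and H2-D1. The spelling GAANNGAAA, added after these sequences had been read, was found in 7.52% of promoters and in the same 2 genes. GAAANNGAA was found in 8.56% of promoters and in B2m. TGACG was found in 20.8% of promoters and in 5 of the 8 genes (H2-K1, H2-D1, B2m, Psmb9 and Tap1). CCAAT was found in 37.4% of promoters and in those 5 genes and Tapbp. The interferon gamma activation letters TTCNNNGAA were found in 8.3% of promoters and in Psmb8. A match describes letters only and was not tested as a binding site.

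The H2-K1 and H2-D1 transcripts were alike over 90.7% of 1472 aligned bases, with identical runs of up to 91 bases. The reads were sequenced at 150 bases, longer than these runs. How reads were divided between the genes was not tested. FVB mice also carry another H2 haplotype than the reference strain, and its effect on read mapping was not tested. H2-D1 was listed with H2-L in 1 row. H2-K1 had its own row in the Normal and Tumor samples and shared a row with the pseudogene H2-K2 in the DMSO and C646 samples. The tables of the experiments were quantified separately, so levels are compared within each.

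Values are FPKM, fragments per kilobase of transcript, scaled to the number of mapped fragments. The FPKM of all rows, with or without a gene name, summed to between 526854.9 and 783718.6 in the 12 samples. No read counts were given, so the depth of the libraries is unknown. Low values allowed the relative depth to be read for 13 of the sample pairs in the DMSO and C646 experiment, where the ratio was between 0.757 and 1.29, and for 2 pairs in the Normal and Tumor experiment, where it was 1.18 (Normal replicate 3 over 1) and 1.53 (Tumor replicate 3 over 1). Replicates correlated at r = 0.947 to 0.973 across genes in Normal and Tumor, 0.951 to 0.959 in C646 and 0.888 to 0.923 in DMSO. The lowest DMSO values were those of replicate 3, with replicate 1 (0.888) and with replicate 2 (0.9105). For the class I genes, DMSO replicate 1 stood apart.

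The untreated comparison asks how the class I genes of the gland differ in the tumor. In Tumor, 8 of the 10 genes were lower than in Normal and none was higher (limma on log2 FPKM, adjusted p under 0.05 over 13031 genes). The 8 were Nlrc5, B2m, both heavy chains, both transporter genes, Psmb8 and Psmb9. Nlrc5 passed the filter on low values only through Normal. Tapbp and Psmb10 did not pass the test, although Psmb10 did, as lower, under quantile normalization. Without Normal replicate 2 the count of lower genes was 5, since Nlrc5 then failed the filter and Tap1 and Psmb8 the test. Of all genes tested, 31.7% were lower and 28.8% higher. The median log2 fold change was -1.02 over the 10 genes and -0.02 over all genes tested. For 8 of the 10 genes every Tumor sample lay below every Normal sample, which was the case for 35.8% of all genes. In bulk tissue, fewer cells of a type and less RNA per cell cannot be told apart.

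**Figure D1:**
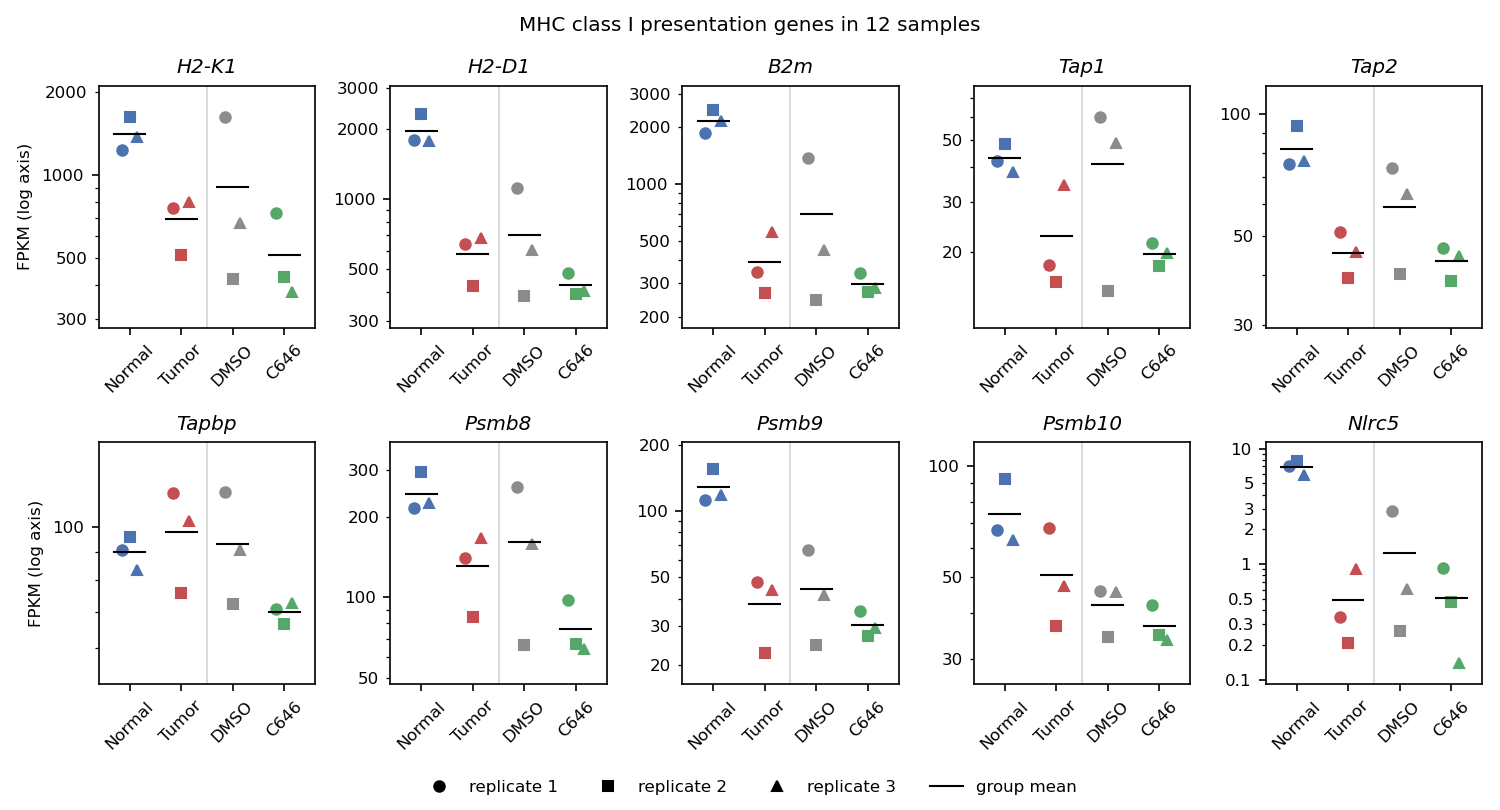
FPKM of each of the 10 genes (log axis, 1 panel per gene) in the Normal, Tumor, DMSO and C646 samples; symbols mark replicate 1, 2 and 3 and bars the group mean. The Tumor points lie below all Normal points in every panel but Tapbp and Psmb10, and DMSO replicate 1 is the highest injected tumor in all 10 panels.

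The classical heavy chains bind the peptide and are what the T cell receptor sees. H2-K1 was 1235, 1631 and 1381 FPKM in Normal replicates 1 to 3 and 763, 513 and 801 FPKM in Tumor replicates 1 to 3. H2-D1 was 1793, 2327 and 1771 FPKM in Normal and 642, 426 and 685 FPKM in Tumor. The groups did not overlap for either gene, and Normal replicate 2 was the highest and Tumor replicate 2 the lowest sample of both. The mean of H2-K1 fell from 1416 to 692.5 FPKM, with coefficients of variation of 14.1% and 22.6% (n = 3 each), and its log2 fold change was -1.05 ± 0.24 (SE). For H2-D1 the log2 fold change was -1.77 ± 0.25 (limma adjusted p = 7.98e-04), against an adjusted p of 0.007 for H2-K1.

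B2m, the light chain that all class I heavy chains need at the cell surface, fell most among the structural genes. It was 1869, 2455 and 2154 FPKM in Normal and 343, 268 and 558 FPKM in Tumor, so that the highest tumor was well below the lowest gland. The mean was 5.54-fold lower in Tumor, and the log2 fold change was -2.53 ± 0.29 (SE, limma adjusted p = 3.33e-04). In Normal B2m had a higher FPKM than H2-K1 or H2-D1 in every replicate, and in Tumor a lower one in every replicate.

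Tap1 and Tap2, the subunits of the peptide transporter, fell by similar amounts. Tap1 was 42.2, 48.2 and 38.4 FPKM in Normal and 18.1, 15.7 and 34.5 FPKM in Tumor, where replicate 3 came close to the lowest gland. Tap2 was 75.3, 93.8 and 76.6 FPKM in Normal and 51.2, 39.3 and 45.4 FPKM in Tumor. The log2 fold changes were -0.9997 ± 0.29 (SE, limma adjusted p = 0.0199) for Tap1 and -0.86 ± 0.16 (adjusted p = 0.00258) for Tap2. The call of Tap1 was lost in 5 of the alternative fits, with adjusted p between 0.0507 and 0.0746, among them those without Normal replicate 1 (0.0525) or 2 (0.0696) and without Tumor replicate 1 (0.0507) or 2 (0.0519).

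Tapbp, the tapasin gene, did not share the decrease. It was 90.6, 95.9 and 83.6 FPKM in Normal and 115, 75.7 and 102 FPKM in Tumor, with tumors both above and below the glands. The log2 fold change was 0.10 ± 0.18 (SE, limma adjusted p = 0.652), with a 95% interval from -0.32 to 0.52. The interval lies above the estimate of each of the 8 lower genes, but the difference between Tapbp and the other genes was not tested.

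Psmb8, Psmb9 and Psmb10 encode the catalytic subunits that replace Psmb5, Psmb6 and Psmb7 in the immunoproteasome. Psmb8 was 215, 293 and 224 FPKM in Normal and 140, 84.4 and 167 FPKM in Tumor. Psmb9 was 112, 155 and 118 FPKM in Normal and 47.8, 22.6 and 43.6 FPKM in Tumor. Neither gene overlapped between the groups, and Tumor replicate 2 was the lowest sample of both. The log2 fold changes were -0.95 ± 0.27 (SE, limma adjusted p = 0.0186) for Psmb8 and -1.82 ± 0.30 (adjusted p = 0.00154) for Psmb9. Without Normal replicate 2 the adjusted p of Psmb8 was 0.0698.

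Psmb10 was 67.2, 91.9 and 63.1 FPKM in Normal and 68.0, 36.8 and 47.4 FPKM in Tumor. Tumor replicate 1 lay above 2 of the glands, so the groups overlapped. The log2 fold change was -0.57 ± 0.25 (SE, limma adjusted p = 0.0861). Without Tumor replicate 1 it was -0.81, with an adjusted p of 0.0145.

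The constitutive counterparts did not fall with them. Psmb5, listed with Mir686, and Psmb6 were higher in Tumor, by 0.68 ± 0.20 (SE, limma adjusted p = 0.0204) and 1.02 ± 0.17 (adjusted p = 0.00187) on the log2 scale. Psmb7 differed by 0.16 ± 0.14 (adjusted p = 0.356). The ratio of an immunoproteasome subunit to its counterpart, taken within a sample, does not depend on how the libraries were scaled.

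The Psmb8 to Psmb5 ratio was 2.73, 2.89 and 2.98 in Normal and 0.899, 0.566 and 1.57 in Tumor. The Psmb9 to Psmb6 ratio was 0.778, 1.02 and 0.861 in Normal and 0.130, 0.0832 and 0.170 in Tumor. The Psmb10 to Psmb7 ratio was 0.390, 0.460 and 0.339 in Normal and 0.313, 0.169 and 0.251 in Tumor. All 3 ratios were lower in every Tumor sample than in any Normal sample, by 1.63, 2.84 and 0.73 on the log2 scale. Each gave p = 0.1 in a two-sided exact permutation test, the smallest p that 3 samples against 3 allow, and 0.2 after Benjamini-Hochberg adjustment over 6 tests.

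**Figure D2:**
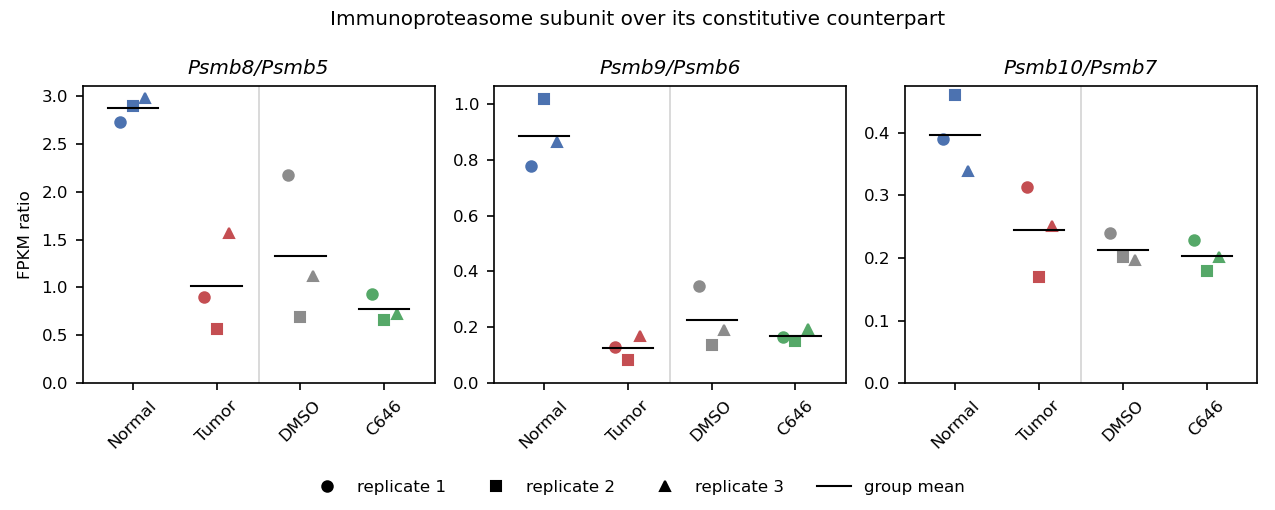
Ratio of FPKM of each immunoproteasome subunit to its constitutive counterpart (y axis, linear from 0) in each sample of the 4 groups; symbols mark replicates and bars the group mean. In all 3 panels the Normal points lie above the Tumor points, and DMSO replicate 1 has the highest ratio of the injected tumors.

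Nlrc5, the transactivator of class I genes, had the lowest level of the 10. It was 7.12, 7.74 and 5.89 FPKM in Normal and 0.346, 0.209 and 0.902 FPKM in Tumor. All tumors were below 1 FPKM, so Nlrc5 entered the test only through the Normal samples. The mean was 14.2-fold lower in Tumor, and the log2 fold change was -3.98 ± 0.48 (SE, limma adjusted p = 4.13e-04). The estimate depended on the pseudocount and was -2.43 with a pseudocount of 1, where that of B2m was -2.53. Where 1 FPKM was required in all 6 samples, Nlrc5 was not tested and 7 of the 9 remaining genes were lower.

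**Figure D3:**
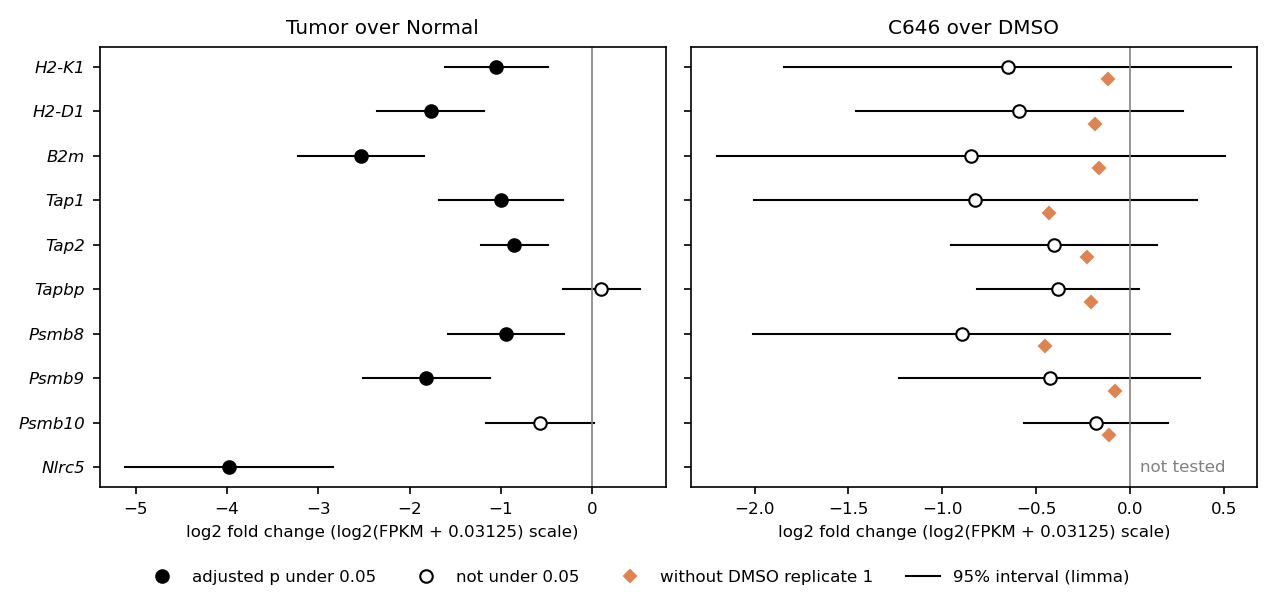
Log2 fold change (x axis) of each of the 10 genes in Tumor over Normal and in C646 over DMSO, with 95% intervals from limma; filled circles have an adjusted p under 0.05, and diamonds give the C646 estimate without DMSO replicate 1. In the Tumor panel 8 circles are filled and lie below 0, and in the C646 panel none is filled and every interval includes 0.

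The samples also varied together within a group. Normal replicate 2 was the highest gland for all 10 genes, and Tumor replicate 2 the lowest tumor for all 10. Tumor replicate 3 was the highest tumor for 6 genes and Tumor replicate 1 for the other 4. The share of all genes with such an order was not computed. Normal replicate 2 also had the largest FPKM sum of the glands (639409.2, against 550599.2 and 564208.8 in replicates 1 and 3). Among the tumors the smallest FPKM sum was that of replicate 3 (625568.4), not of replicate 2 (685102.2). The summed FPKM of 5 leukocyte genes was highest in Normal replicate 2 (1281) and, among the tumors, lowest in Tumor replicate 2 (49.1). The part of these in the shared order was not tested.

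Markers of other cells moved with the comparison, and their counts stand beside 31.7% lower and 28.8% higher over all genes tested. The summed FPKM of 5 leukocyte genes was between 831.8 and 1281 in Normal and between 49.1 and 86.5 in Tumor, and all 5 were lower. Ptprc, which encodes CD45, was 56.2 to 63.4 FPKM in Normal and 1.35 to 1.68 FPKM in Tumor. Of the T and NK cell genes 9 of 10 were lower, 7 of which had passed the filter only through Normal, and their sums were 268.7 to 375.1 and 1.99 to 5.42 FPKM. The T cell genes Cd3e (45.1 to 55.2 FPKM in Normal) and Cd8a (19.0 to 24.6 FPKM) did not exceed 0.170 and 0.160 FPKM in Tumor. All 5 B cell genes were lower, and all 5 had passed the filter only through Normal, with sums of 244.5 to 306.8 and 0.597 to 1.19 FPKM, Cd79a at most 0.177 FPKM in Tumor and Ms4a1 listed at 0 in all tumors.

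For macrophages 5 of 7 genes were lower, with Adgre1 at 6.85 to 7.11 and 2.34 to 3.28 FPKM, and 1, Cd14, was higher. The sums overlapped (331.6 to 438.8 FPKM in Normal, 274.7 to 455.7 FPKM in Tumor). Cd14 was 30.95 to 48.7 FPKM in Normal and 133.8 to 185.4 FPKM in Tumor, and without it the sums did not overlap. Of the dendritic cell genes 5 of 6 were lower, 3 of them tested only through Normal (63.8 to 87.8 and 3.42 to 5.62 FPKM). Of the lymph node stroma genes 4 of 5 were lower, all 4 tested only through Normal, with Ccl19 and Cr2 listed at 0 in Tumor. Their sum was 992.0 to 1397 FPKM in Normal and 3.36 to 2571 FPKM in Tumor. The highest value was nearly all Glycam1 in Tumor replicate 2, a gene named after its value was seen. The other 4 genes were at most 0.551 FPKM in Tumor. Csn2, an epithelial marker also chosen after its values were seen, was likewise highest among the tumors in replicate 2 (9504 FPKM). In Normal replicate 2, Csn2 was the lowest of the glands (18.2 FPKM) and Glycam1 the highest (1294 FPKM).

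All 5 endothelial genes were lower (108.6 to 134.2 and 13.3 to 23.2 FPKM), as were all 6 adipocyte genes (17460.0 to 22269.5 and 84.7 to 1312 FPKM). Epithelial genes were higher for 6 of 8 (476.9 to 1089 and 12868.9 to 24214.8 FPKM). Most of the Tumor sum was casein RNA (Csn2 and Csn3); the other 6 genes summed to 336.9 to 685.4 FPKM in Normal and 2228 to 3152 FPKM in Tumor, and the mean of Epcam was 7.62-fold higher in Tumor. All 5 skeletal muscle genes were higher (13.5 to 79.6 and 1526 to 4313 FPKM). The part of these cells in the lower class I levels was not tested.

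Of 65 further genes of the pathway, sorted by role into 6 lists, 61 rows were tested, of which 28 were lower, 13 higher and 20 not called, beside 31.7% lower and 28.8% higher over all genes tested. Of the 28, H2-M2, H2-Bl, Lnpep, Cxcl9 and Cd274 passed the filter on low values only through Normal, where they are high, and of the 56 other rows 23 were lower and 13 higher. The median log2 fold change was -0.73 over the 61 rows and -0.37 over the 56. The lists went in different directions.

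Among the other class I heavy chains, 10 of 12 rows were lower and none higher, with a median of -2.15. Without H2-M2 and H2-Bl, 8 of 10 were lower, with a median of -1.68. Over all genes tested 31.7% were lower and 28.8% higher. H2-M3, a nonclassical chain that presents formylated peptides, was 16.9, 20.2 and 18.9 FPKM in Normal and 1.55, 1.24 and 2.43 FPKM in Tumor (log2 fold change -3.45 ± 0.26, SE, limma adjusted p = 5.76e-05). H2-M2 was 11.1 to 19.3 FPKM in Normal and at most 0.163 FPKM in Tumor, and was listed at 0 in replicate 2. H2-Q7 was lower by 2.70 on the log2 scale, and H2-Bl was 4.62 to 6.38 FPKM in Normal and 0.658 to 0.773 FPKM in Tumor. H2-T23, which encodes the Qa-1 chain, was listed with C920025E04Rik in both experiments. H2-T23 was 54.6, 62.7 and 55.8 FPKM in Normal and 53.3, 27.7 and 47.1 FPKM in Tumor. It did not pass the test (-0.49 ± 0.25, SE, limma adjusted p = 0.124).

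Folding and trimming genes split, with 5 of 10 higher and 3 lower, beside 28.8% and 31.7% of all genes tested. Genes for protein folding in the endoplasmic reticulum rose: Hspa5 (1.40 on the log2 scale), Pdia3 (1.38), Calr (1.19), Ganab (1.00) and Canx made up the 5 of 10 genes that were higher. Pdia3, which pairs with tapasin in peptide loading, was 156.1, 139.6 and 163.6 FPKM in Normal and 411.5, 359.8 and 424.2 FPKM in Tumor. The 3 lower genes were the aminopeptidases Erap1 (-1.19) and Lnpep (-2.40, tested only through its Normal values) and the tapasin-related Tapbpl (-1.56). Erap1, which trims peptides to class I length, was 15.2, 14.6 and 16.5 FPKM in Normal and 4.58, 8.05 and 8.32 FPKM in Tumor (limma adjusted p = 0.00441).

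Of the 8 proteasome genes tested, 4 were higher and none lower, beside 28.8% and 31.7% of all genes tested. Besides Psmb5 and Psmb6 these were Pomp (1.26), which assists assembly, and the activator Psme4 (0.64). Psme1 and Psme2, the interferon-inducible PA28 activator, differed by -0.03 ± 0.17 (SE, limma adjusted p = 0.896) and -0.21 ± 0.18 (adjusted p = 0.343).

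Of 16 regulators of class I transcription, 6 were lower and 3 higher, beside 31.7% and 28.8% of all genes tested. Irf8, a factor of myeloid and B cells, fell from between 37.5 and 40.8 FPKM to between 3.11 and 4.59 FPKM. Irf1 was 53.3, 61.7 and 56.9 FPKM in Normal and 29.7, 19.0 and 28.2 FPKM in Tumor (-1.18 ± 0.19, SE, limma adjusted p = 0.00151). Irf2 and Ciita, the class II counterpart of Nlrc5, each fell by 1.40 on the log2 scale. The 3 higher genes were Nfyc (1.06), Rfxap (0.68) and Irf9 (0.59).

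In the interferon gamma pathway, 4 of 6 tested genes were lower, namely Socs1 (-2.39), Ifngr1 (-1.40), Jak1 (-1.20) and Jak2 (-0.88), and the phosphatase gene Ptpn2 was higher (0.91). Ifng itself was 0.122, 0.605 and 0.104 FPKM in Normal, was listed at 0 in all 3 tumors and did not enter the test. Of 9 tested interferon gamma targets outside the class I pathway, 5 were lower and none higher, and 3 of 7 without Cxcl9 and Cd274, which entered the test only through Normal. Both lists stand beside 31.7% lower and 28.8% higher over all genes tested. Cd274, which encodes PD-L1, was 6.47 to 9.88 FPKM in Normal and 0.125 to 0.555 FPKM in Tumor, and Cxcl9 was 6.44 to 8.73 FPKM in Normal and at most 0.213 FPKM in Tumor.

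**Figure D4:**
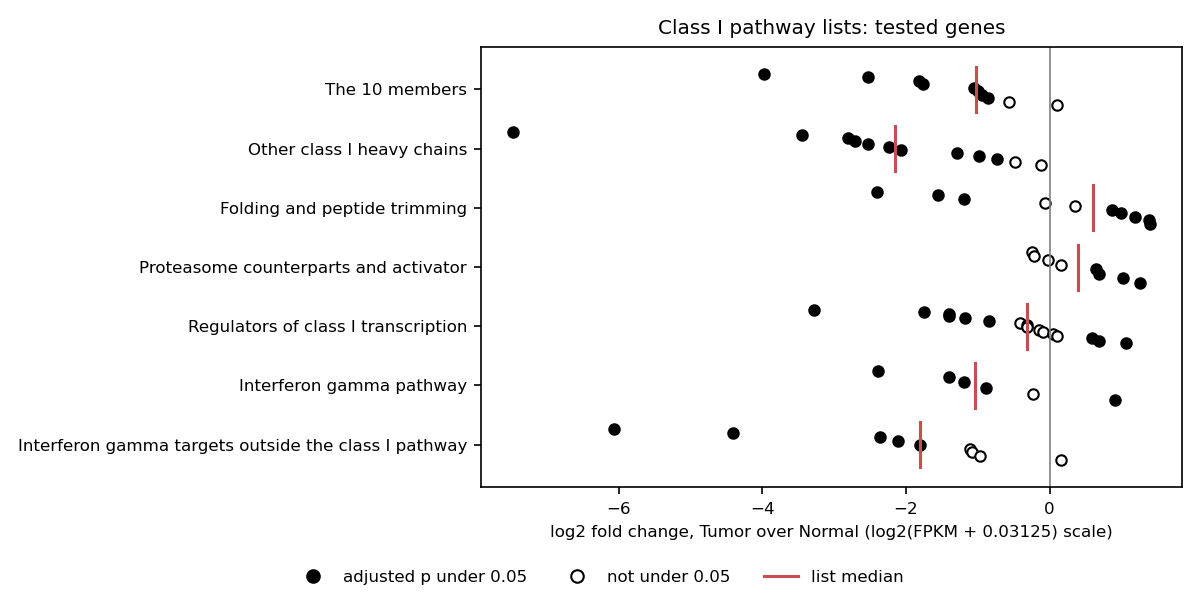
Log2 fold change in Tumor over Normal (x axis) of the 10 genes and of the tested genes of 6 pathway lists (rows); filled circles have an adjusted p under 0.05 and red bars are list medians. The other heavy chains lie furthest to the left, with a median of -2.15, while folding and proteasome genes have circles on both sides of 0 and medians of 0.61 and 0.40.

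The second experiment asks whether C646 changes gene expression in the tumor. Before the groups are compared, 1 library has to be described. DMSO replicate 1 was the highest of the 6 injected tumors for all 10 class I genes, whereas it was the highest for 25.7% of all genes tested. Relative to the median of the other 5 tumors it was 6.12-fold higher for Nlrc5, 4.86-fold for B2m, 3.84-fold for Psmb8 and 3.78-fold for H2-K1, and 1.32-fold for Psmb10 and 1.60-fold for Tapbp. DMSO replicate 2 was the lowest DMSO sample for all 10 genes and replicate 3 lay between.

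The genes that follow were chosen after their values were seen. Gbp3, which interferons induce, was 48.6 FPKM in DMSO replicate 1, 23.6 FPKM in replicate 3 and 3.74 to 6.13 FPKM in the other 4 tumors. Stat2, Irgm1 and Iigp1, which interferons also induce, likewise had DMSO replicate 1 as the highest and replicate 3 as the next highest tumor. Irf1 was 29.6 FPKM in DMSO replicate 1 and 29.2 to 34.6 FPKM in the others. Ifng was listed at 0 in all 6 injected tumors.

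Ptprc was 2.43 FPKM in DMSO replicate 1 and 2.45 to 3.93 FPKM in the others. The 5 leukocyte genes summed to 46.3 FPKM there, against 48.6 to 77.5 FPKM in the other 5 tumors. Not every immune marker was low in it: Cd53 was 4.72 FPKM and second to 1 other tumor, Cd68, at 25.6 FPKM, was the highest of the 6, and the T and NK cell genes summed to 6.30 FPKM against 2.39 to 7.34 FPKM. The adipocyte genes summed to 9.95 FPKM, the lowest of the 6. Epcam was 627 FPKM in DMSO replicate 1 and 524 to 701 FPKM in the others.

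**Figure D5:**
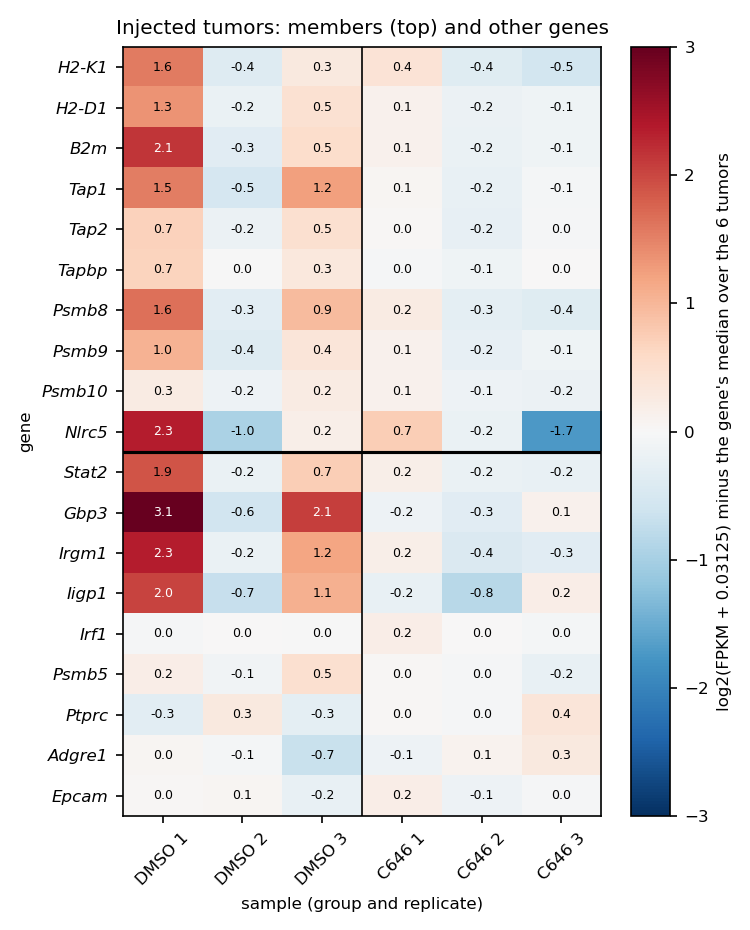
Log2 FPKM of the 10 class I genes (upper block) and of 9 other genes (lower block) in the 6 injected tumors, minus the median of each gene over the 6; red is higher, blue lower, and the numbers in the cells are the differences. DMSO replicate 1 is 2.1 above the median for B2m and 3.1 for Gbp3, and between -0.31 and 0.20 from the median for Irf1, Psmb5, Ptprc, Adgre1 and Epcam.

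No class I gene passed the test between C646 and DMSO. Of the 10 genes 9 were tested, and 0 were called lower or higher (limma, adjusted p = 0.99 for each). Over all 12083 genes tested 0% were called higher and 0% lower, and 384 genes, 3.18%, had an unadjusted p under 0.05, none of them a class I gene. The estimates of all 9 genes were below 0, with a median of -0.59 against -0.01 over all genes tested. None of the 9 had every C646 sample below every DMSO sample, which was the case for 4.52% of all genes. Without DMSO replicate 1 the median of the 9 genes was -0.18, and without DMSO replicate 2 it was -0.95.

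The heavy chains showed how far this rested on the DMSO samples. H2-K1 was 1620, 421 and 671 FPKM in DMSO and 730, 428 and 377 FPKM in C646. H2-D1 was 1121, 385 and 606 FPKM in DMSO and 482, 394 and 405 FPKM in C646. DMSO replicate 1 lay above all C646 samples and DMSO replicate 2 within or below them. The log2 fold changes were -0.65 ± 0.50 (SE, 95% interval -1.84 to 0.54) for H2-K1 and -0.59 ± 0.37 (-1.46 to 0.28) for H2-D1. Without DMSO replicate 1 they were -0.12 and -0.18.

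B2m was 1384, 246 and 453 FPKM in DMSO and 342, 271 and 285 FPKM in C646. The SD was 606.1 FPKM in DMSO and 37.6 FPKM in C646, so the spread of the solvent group exceeded the difference of the means, 694.3 and 299.3 FPKM. The log2 fold change of B2m was -0.85 ± 0.57 (SE, 95% interval -2.20 to 0.50), and -0.17 without DMSO replicate 1.

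Tap1 was 60.1, 14.5 and 48.5 FPKM in DMSO and 21.5, 17.8 and 19.9 FPKM in C646. Tap2 was 73.5, 40.1 and 63.5 FPKM in DMSO and 46.6, 38.6 and 44.6 FPKM in C646. Tapbp was 116, 72.3 and 90.6 FPKM in DMSO and 70.8, 66.4 and 72.7 FPKM in C646. For these genes DMSO replicates 1 and 3 lay above all C646 samples and replicate 2 did not. The log2 fold changes were -0.82 (95% interval -2.004 to 0.36) for Tap1, -0.41 (-0.96 to 0.14) for Tap2 and -0.38 (-0.81 to 0.05) for Tapbp, and -0.43, -0.23 and -0.21 without DMSO replicate 1. Without DMSO replicate 2, Tap1 reached -1.46 with an adjusted p of 0.069, the smallest of any of the 9 genes when 1 library was left out.

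For the immunoproteasome genes, too, DMSO replicates 1 and 3 were the highest samples. Psmb8 was 257, 66.5 and 159 FPKM in DMSO and 97.9, 67.0 and 64.1 FPKM in C646 (-0.90, 95% interval -2.01 to 0.21). Psmb9 was 66.3, 24.7 and 41.5 FPKM in DMSO and 35.0, 27.2 and 29.3 FPKM in C646 (-0.43, -1.23 to 0.37). Psmb10 was 45.9, 34.4 and 45.5 FPKM in DMSO and 42.0, 34.8 and 33.8 FPKM in C646 (-0.18, -0.56 to 0.20), the narrowest interval of the 9 genes. Without DMSO replicate 1 the 3 estimates were -0.46, -0.08 and -0.11.

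The ratios to the constitutive subunits overlapped between DMSO and C646. The Psmb8 to Psmb5 ratio was 2.18, 0.698 and 1.12 in DMSO and 0.932, 0.665 and 0.724 in C646. The log2 differences of the Psmb8, Psmb9 and Psmb10 ratios were -0.64, -0.30 and -0.07, with p = 0.3, 0.7 and 0.7 in two-sided exact permutation tests and 0.45, 0.7 and 0.7 after adjustment over the 6 ratio tests.

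Nlrc5 was 2.87, 0.263 and 0.609 FPKM in DMSO and 0.928, 0.470 and 0.140 FPKM in C646. Only DMSO replicate 1 exceeded 1 FPKM, so the gene was not tested. With no filter on low values its log2 fold change was -0.91 ± 1.00 (SE, limma adjusted p = 0.925).

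Of 54 tested rows of the pathway lists 0 were called between C646 and DMSO, and 4 had an unadjusted p under 0.05. Over all genes tested 3.18% had such a p. In 5 rows every C646 sample lay below every DMSO sample, 9.26% of the rows, beside 4.52% of all genes. H2-T23 had the smallest unadjusted p of the lists, 0.00167 in limma, with 38.9, 28.7 and 33.2 FPKM in DMSO and 18.5, 18.5 and 21.9 FPKM in C646 (log2 fold change -0.77 ± 0.15, SE, adjusted p = 0.99). Unlike the 10 class I genes, H2-T23 was higher in all 3 DMSO samples than in any C646 sample. So were H2-T22 (listed with H2-T9 and H2-T10), Hspa5, Psme1 and Ptpn2. Psme1 was 190.5, 158.2 and 203.2 FPKM in DMSO and 144.1, 144.9 and 141.6 FPKM in C646, and Psme2 186.0, 123.3 and 169.6 against 136.2, 106.7 and 94.9 FPKM. Psme1 and Psme2 had adjusted p values of 0.99, and the differences were -0.35 and -0.50 on the log2 scale.

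Psmb5, Psmb6 and Psmb7 differed by -0.26, -0.13 and -0.12, Erap1 by -0.28, H2-M3 by -0.37, and Irf1 by 0.05 on the log2 scale, all without a call. Leukocyte genes summed to 46.3 to 59.3 FPKM in DMSO and 48.6 to 77.5 FPKM in C646. T and NK cell genes summed to 2.39 to 6.30 and 3.91 to 7.34 FPKM, B cell genes to 0.759 to 1.25 and 0.399 to 0.836 FPKM, and macrophage genes to 259.2 to 355.0 and 296.9 to 399.9 FPKM. Of the defining lymphocyte genes, Ms4a1 was listed at 0 in all injected tumors. Dendritic cell genes summed to 3.34 to 6.84 and 4.69 to 7.14 FPKM, lymph node stroma genes to 0.794 to 93.4 and 2.65 to 397.4 FPKM, epithelial genes to 7129 to 9578 and 8177 to 10353.6 FPKM, endothelial genes to 24.04 to 41.1 and 25.8 to 33.3 FPKM, and skeletal muscle genes to 11.7 to 361.0 and 11.2 to 334.0 FPKM. All of these sums overlapped between the groups. The highest lymph node stroma sums were nearly all Glycam1 (93.05 FPKM in DMSO replicate 3, 397.2 FPKM in C646 replicate 2). Csn2 was also the highest of its group in these samples (394.5 and 2372 FPKM). Ccl19 and Cr2 were listed at 0 in all injected tumors.

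The adipocyte genes alone did not overlap in their sums, which were 9.95 to 47.2 FPKM in DMSO and 58.7 to 301.8 FPKM in C646. Adipoq, named after its values were seen, was 0.186, 1.57 and 0 FPKM in DMSO and 3.57, 10.6 and 22.8 FPKM in C646 (limma unadjusted p = 0.00632, adjusted p = 0.99). No marker gene of any list was called, and the part of adipocytes in the class I values was not tested.

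Across all 12 samples the genes most like the mean profile of the 10 were Rusc2, Pstpip1, Kctd17, Gys1 and Ndrg3. Likeness was the root-mean-square distance between log2 profiles, each centred on its mean, over 11475 other genes. The distances were 0.25 to 0.29, against 0.20 for H2-D1 and H2-K1 and 1.159 for Nlrc5. Each of the 10 is part of the mean it was measured against, and 6 of them (Tap2, Tap1, Psmb10, B2m, Tapbp and Nlrc5) lay further from it than these 5 genes. Rusc2 was 5.67 to 7.23 FPKM in Normal and 2.25 to 2.69 FPKM in Tumor, and 5.22 FPKM in DMSO replicate 1 against 1.75 to 2.74 FPKM in the other injected tumors. This is a description over samples from separately quantified tables.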

How the data were processed

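RNA-seq libraries were made from poly-A RNA without strand information and sequenced as paired reads of 150 bases. Per the labels, the authors aligned reads to mm10 with TopHat2 2.1.1 and deposited FPKM values from Cufflinks 2.2.1, 1 table per sample. Rows without a gene name were dropped, repeated names were summed, and a joined row (such as H2-D1 with H2-L) stood for a gene without a row of its own. For each comparison of 3 against 3 samples, a gene that reached 1 FPKM in 3 or more of the 6 samples was tested on log2(FPKM + 0.03125) with limma 3.58.1 in R 4.3.3 (lmFit, eBayes with trend), with Benjamini-Hochberg adjustment over all genes tested and calls at 0.05. Fold changes are on this scale, which understates the change of low genes. The fit was tested on simulated data. Subunit ratios were compared by exact permutation tests over samples.

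The 10 genes and the lists of pathway and marker genes were chosen with earlier results of these data known. Named were all 10 genes, the called pathway genes with the largest changes (at most 4 per list and direction), a fixed set of pathway and marker genes, and the 5 genes of most similar profile. Alternatives changed the pseudocount, the filter, the scaling, the variance trend and the samples fitted, left out each replicate, or added the replicate number as a block. Replicate numbers are not said to mark shared animals or batches, so same-numbered samples were not treated as paired. Their deviations from the group mean correlated at r = -0.098 to 0.010 in Normal and Tumor. In DMSO and C646 every same-numbered pair was above 0 (0.070 to 0.175). Pairs of different number were not computed. The limma p-values set a group difference against the spread between these mice or pools. The spread among the mice pooled in a Normal replicate was not measured.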

Additional observations from a re-analysis of the deposited data

How the results depend on the processing

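Of 120 counts of class I and pathway genes recomputed under the alternatives, 119 stayed within 1.5 times the reported count. All counts in C646 against DMSO, and those of class I genes higher in Tumor, were 0 throughout and show little about stability. The number of class I genes lower in Tumor was between 5 and 8 when 1 library was left out; it was 5 without Normal replicate 2, where Tap1 (adjusted p = 0.0696) and Psmb8 (0.0698) were not called and Nlrc5 failed the filter, as in each fit that left out a Normal replicate, because 3 samples at 1 FPKM were required. With all 12 samples in 1 fit the count was 6: H2-K1 (adjusted p = 0.051), Psmb8 (0.0712) and Tap1 (0.0746) lost the call and Psmb10 gained it (0.045). The sign of Tapbp turned under quantile normalization (log2 fold change -0.086) and without Tumor replicate 1 (-0.030, in a range of -0.030 to 0.27 over the fits without 1 library), in no case with a call. Quantile normalization moved the median of all genes from -0.02 to 0.10, and Psmb10 was then called lower (-0.75); it changed the split of all calls from 3758 higher and 4128 lower to 4260 and 3715. The other class I genes called lower in Tumor (H2-D1, B2m, Tap2 and Psmb9) were called in every alternative. With the replicate number as a block, 8 class I genes were lower, the same 8, and pathway genes counted 13 higher and 29 lower. In C646 against DMSO no class I gene was called in any alternative, and 12 genes in all were called without DMSO replicate 2. All 48 recomputed log2 differences of the subunit ratios stayed within the larger group SD of the reported difference. That rule does not require the same sign. Without DMSO replicate 1 the differences of the Psmb9 and Psmb10 ratios between C646 and DMSO were small and changed sign. The cause of these changes was not tested. With a pseudocount of 1 the log2 fold change of Nlrc5 in Tumor was -2.43 in place of -3.98. The depth of the libraries is unknown.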
